A study of Mus musculus with 8 samples.

Results

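The stretch of mouse chromosome 1 from 100 kb to 1 Mb upstream of Pou3f3 holds long noncoding RNA (lncRNA) genes and no annotated protein-coding gene, and its contacts with Pou3f3 were read in 4 cell types. In each of the 8 libraries, reads from a viewpoint labelled as the Pou3f3 transcription start were counted per restriction fragment. The viewpoint centre lay at mm10 position 42697534. The region was defined as chr1:41697534-42599999, 902.5 kb long, with its near edge 97.5 kb and its far edge 1000 kb from that centre, and a fragment belonged to it if its midpoint lay inside. It held 1984 of the 83192 fragments listed for the Pou3f3 viewpoint, 27683 of which were on chromosome 1, and of the 420163 fragments listed for all 5 viewpoints of the series. A fragment was listed if it had at least 1 read, so that listing was the only measured value that entered the membership of a fragment. The limits of the region itself were chosen by its read shares in these libraries, which were already known. The shares below are therefore descriptions, and the number of windows that passed a test is no independent support for the choice of the region.

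The 4 cell types had 2 libraries each. ES cells were mouse embryonic stem cells kept on gelatin in serum with leukemia inhibitory factor (LIF). NSC were neural stem cells of the E14.5 embryonic cortex, replicate 1 of which was grown in StemPro NSC SFM with bFGF and EGF. Neurons were cortical cells made by differentiating neuronal stem cells of the same stage, E14.5, replicate 1 of which was plated on poly-D-lysine in Neurobasal B27 medium. The growth conditions of NSC replicate 2 and neuron replicate 2 are not given in the labels. N2a is a mouse neuroblastoma cell line, grown in DMEM with FBS. No treatment or genotype was given for any group, and no label tells if the replicates of a cell type came from different cultures, so each p below measures the spread between these libraries alone. The assay reads genomic DNA, so the cell types could not be checked against marker genes.

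Pou3f3, also called Brn-1, encodes a transcription factor of the POU family, known for its part in neural progenitors and in the upper-layer neurons of the cortex. Many such developmental genes lie in long stretches poor in other protein-coding genes, where distal enhancers and the start sites of lncRNA genes can come close to a promoter through folding of the chromatin. In a viewpoint assay, crosslinked chromatin is cut and ligated, and the fragments ligated to the chosen promoter are sequenced. The share of reads in a window is thus a relative contact frequency of that window with the promoter. In a bulk culture, more cells with a contact and a more frequent contact in each cell cannot be told apart.

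The reference annotation (GRCm38.p6, the build of mm10) placed 8 genes wholly inside the region, of which 6 were lncRNA genes with 13 start sites in all and 2 were pseudogenes. The longest were Gm29260 (chr1:41743022-41939598, plus strand, 954.5 to 757.9 kb upstream of the viewpoint) and Gm28175 (chr1:42257852-42310010, plus strand, 439.7 to 387.5 kb upstream). Both are transcribed towards Pou3f3, which starts at 42695768 on the same strand. No function of either RNA is stated here. Of the 323 windows of 5 kb tested for a difference between the 4 cell types, 4.64% passed, and 13 of the 177 in the region did. Those passing windows starting at -955, -815, -805 and -440 kb held 7 of the 13 start sites. Of the 7, 4 lay within a few bases of one another at the head of Gm29260. For that reason the promoters of the first of these and of the other 3 are shown. Each is 250 bases before and 50 bases from the start onward, from RefSeq on GRCm38.p6, read on the plus strand, with TATAAA and its reverse complement in capitals. They are Gm28175 (chr1:42257602-42257901), the first start of Gm29260 (chr1:41742772-41743071), and 2 internal starts of Gm29260, 810.5 kb (chr1:41886821-41887120) and 801.9 kb (chr1:41895421-41895720) from the viewpoint.
Gm28175: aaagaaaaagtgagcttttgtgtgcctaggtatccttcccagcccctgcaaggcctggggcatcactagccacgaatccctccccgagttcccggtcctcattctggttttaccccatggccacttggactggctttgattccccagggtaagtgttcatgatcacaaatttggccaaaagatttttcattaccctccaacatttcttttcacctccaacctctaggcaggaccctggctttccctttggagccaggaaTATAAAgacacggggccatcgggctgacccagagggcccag
Gm29260, first start: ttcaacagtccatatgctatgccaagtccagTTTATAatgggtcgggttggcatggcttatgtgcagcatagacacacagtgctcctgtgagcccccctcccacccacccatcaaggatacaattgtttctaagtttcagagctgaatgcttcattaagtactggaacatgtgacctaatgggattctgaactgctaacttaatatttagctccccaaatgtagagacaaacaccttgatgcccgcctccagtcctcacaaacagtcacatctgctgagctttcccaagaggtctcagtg
Gm29260, start at -810.5 kb: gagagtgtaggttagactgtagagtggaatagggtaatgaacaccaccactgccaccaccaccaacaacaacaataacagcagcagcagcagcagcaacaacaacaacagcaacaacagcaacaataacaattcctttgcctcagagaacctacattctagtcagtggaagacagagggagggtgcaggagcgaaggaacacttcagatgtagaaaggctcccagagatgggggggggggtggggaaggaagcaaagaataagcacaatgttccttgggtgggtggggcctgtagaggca
Gm29260, start at -801.9 kb: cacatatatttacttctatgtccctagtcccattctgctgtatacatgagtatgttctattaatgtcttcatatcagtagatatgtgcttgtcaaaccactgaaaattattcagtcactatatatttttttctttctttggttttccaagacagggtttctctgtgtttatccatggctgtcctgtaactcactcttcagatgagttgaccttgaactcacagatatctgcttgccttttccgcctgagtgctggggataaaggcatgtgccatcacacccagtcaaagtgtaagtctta

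The Gm28175 promoter had a TATAAA at bases 260 to 265, 9 bases after the annotated start, and the first Gm29260 promoter had one on the other strand at bases 32 to 37. The 2 internal promoters had none. Both strands of the 13 promoters of the region were also searched for the octamer ATGCAAAT bound by POU factors, the CCAAT box (CCAAT) and the GC box (GGGCGG). No match of one motif overlapped that of another in the printed promoters. Among 32851 mouse promoters of the same length, 1.74% held the octamer, 13.6% a TATAAA, 37.4% a CCAAT and 35.7% a GGGCGG. None of the 13 promoters held the octamer, and the 4 printed ones held neither CCAAT nor GGGCGG. The 5 kb windows themselves were not searched. Of the promoters not printed, CCAAT lay in that of the Gm29260 start at -790.9 kb, in Gm46088 and in both of Gm36678. GGGCGG lay only in that at -790.9 kb. TATAAA lay in that one, in Gm46089, in Gm36822 and in the other starts at the head of Gm29260. The 13 promoters had 1 to 7 CpG: the Gm28175 promoter had 5 CpG at 52.33% G and C, the first Gm29260 promoter 2 at 46.67%, and the median mouse promoter 7 at 52.67%. These matches describe the letters only.

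The Pou3f3 files listed 23894 to 87903 reads per library, of which 54.3% to 75.1% fell on chromosome 1. Shares are given in percent of the chromosome 1 reads beyond 5 kb of the viewpoint centre, of which there were 13172 in NSC replicate 1, the shallowest library, and up to 58081 in N2a replicate 2. The region held 3409 reads in NSC replicate 1 and 18114 in N2a replicate 2. Its fragments were short, with a median width of 300 bp and a range of 2 to 3499 bp. A library listed 1029 to 1750 of the 1984 fragments, 437 (22.0%) were listed in all 8 libraries and 33 in 1 library only. Adjacent fragments often carried the same count, as reads counted in more than 1 fragment would leave, so single fragments were not compared. The 4 viewpoints on other chromosomes left 358 reads in the region over 32 files, 0.0447% of their 801341 reads off their own chromosome, and between 0 and 31 per 20 kb window. Those totals were low beside the reads of the Pou3f3 viewpoint in every library.

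The region took a larger share of contacts in the 3 neural cell types than in ES cells. It held 20.4% and 21.0% of reads in the ES replicates, 25.9% and 27.6% in NSC, 29.7% and 27.5% in neurons, and 24.4% and 31.2% in N2a. The 2 ES libraries were below the other 6, while the N2a libraries spanned the whole range of the NSC and neuron libraries. The means were 20.7% ± 0.480 (SD, n = 2) in ES cells, 26.7% ± 1.23 in NSC, 28.6% ± 1.53 in the neurons, and 27.8% ± 4.81 in N2a, or 1.29, 1.38 and 1.34 times the ES mean. Downstream of the viewpoint at the same distances the order was the other way, with 10.5% ± 0.793 in ES against 5.79% ± 0.524 in NSC, 6.06% ± 0.667 in the neurons and 6.53% ± 0.447 in N2a. The upstream share divided by the downstream share was thus 2.04 and 1.90 in the ES libraries and 3.92 to 5.09 in the other 6. The excess over ES did not end at the far edge: the stretch from 1 to 3 Mb upstream held 11.9% ± 0.739 in ES cells, 16.8% ± 2.82 in NSC, 17.5% ± 2.02 in the neurons, and 19.1% ± 0.755 in N2a. With 2 libraries a group, a permutation of 1 pair of cell types cannot give a two-sided p below 0.333, so these sums were not tested.

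Within the region the far part carried the difference. From 500 to 1000 kb upstream the shares were 8.56% ± 0.684 in ES cells, 14.46% ± 0.245 in NSC, 15.6% ± 2.37 in the neurons, and 14.1% ± 1.43 in N2a, which is 1.69, 1.82 and 1.65 times the ES mean. From 200 to 500 kb they were 8.21% ± 0.196, 8.90% ± 0.824, 9.43% ± 0.119 and 9.89% ± 2.31 in the same order. From 100 to 200 kb they were 3.81% ± 0.0571, 3.32% ± 0.667, 3.49% ± 0.924 and 3.64% ± 1.01. In the nearest band the libraries of the 4 cell types overlapped, and in the farthest both ES libraries lay below the other 6.

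**Figure D1:**
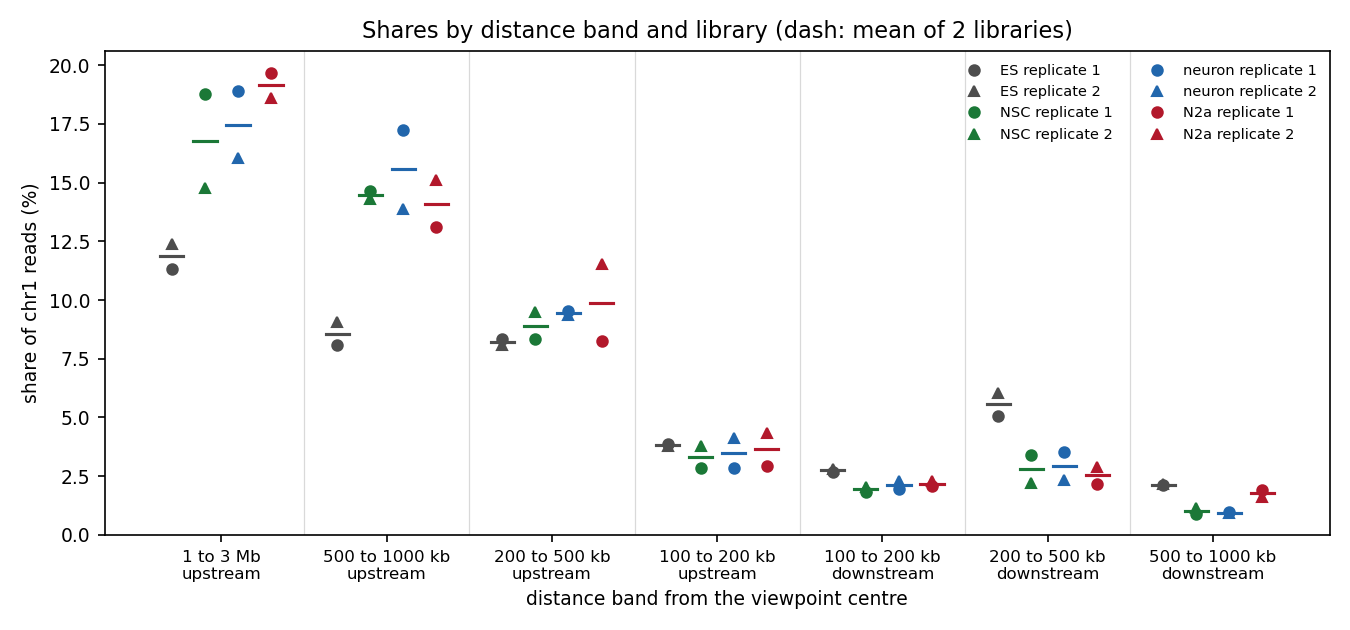
Share of chromosome 1 reads beyond 5 kb of the viewpoint (vertical axis, percent) in 7 distance bands (horizontal axis), with 1 point per library, coloured by cell type, and a dash for the mean of 2 libraries. Both ES libraries sit below the other 6 at 500 to 1000 kb and at 1 to 3 Mb upstream and above them in every downstream band.

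In 20 kb windows the ES profile was low and even, while the other cell types showed tall stretches at fixed places. Over the 45 windows of 20 kb the ES means ranged from 0.192% to 0.890% (median 0.434%), the NSC means from 0.155% to 1.92% (median 0.459%), the neuron means from 0.242% to 2.25% (median 0.468%) and the N2a means from 0.310% to 1.84% (median 0.547%). The NSC and neuron medians were thus close to the ES median, and their tall windows were a minority. By the sign of the fitted change, passing or not, NSC exceeded ES in 21 of the 45 windows and neurons in 26. N2a exceeded ES in 35 of the 45 and had the highest median. These sign counts depend on the scaling. Over all tested 20 kb windows the median log2 change against ES was -0.43 in NSC, -0.52 in the neurons and -0.06 in N2a. With TMM scaling factors these medians became -0.04, -0.09 and 0.01. The counts therefore cannot tell if the rise of N2a was spread over more windows. Of the 10 windows with the highest mean over the 4 cell types, 8 lay more than 400 kb from the viewpoint, where most of the 45 windows lie. Among the 10, 5 overlapped Gm29260, as did 11 of all 45.

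The tallest window, 900 to 880 kb upstream and inside Gm29260, held 0.423% and 0.777% in ES cells, 1.68% and 2.16% in NSC, 2.47% and 2.02% in the neurons, and 2.02% and 1.66% in N2a. All 6 other libraries were above both ES libraries there, N2a included. The second, starting 440 kb upstream at the head of Gm28175, held 0.557% and 0.597% in ES cells, 1.63% and 1.66% in NSC, 2.00% and 1.65% in the neurons, and 0.532% and 0.913% in N2a. Here the N2a libraries lay with or just above ES and apart from NSC and neurons. The third, starting 820 kb upstream over 2 internal starts of Gm29260, held 0.415% and 0.426% in ES cells, 1.97% and 1.59% in NSC, 1.83% and 1.69% in the neurons, and 1.00% and 0.525% in N2a. The N2a libraries fell between ES and the NSC and neuron libraries.

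The other 7 of the 10 started 460, 880, 160, 220, 480, 800 and 960 kb upstream. The windows at 160, 220 and 480 kb did not pass the test over the 4 cell types (edgeR adjusted p = 0.604, 0.524 and 0.442). The window at 160 kb held 0.717% ± 0.131 in ES cells, 0.792% ± 0.540 in NSC, 1.09% ± 0.641 in the neurons, and 0.787% ± 0.231 in N2a, a spread between replicates as wide as the differences between cell types.

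**Figure D2:**
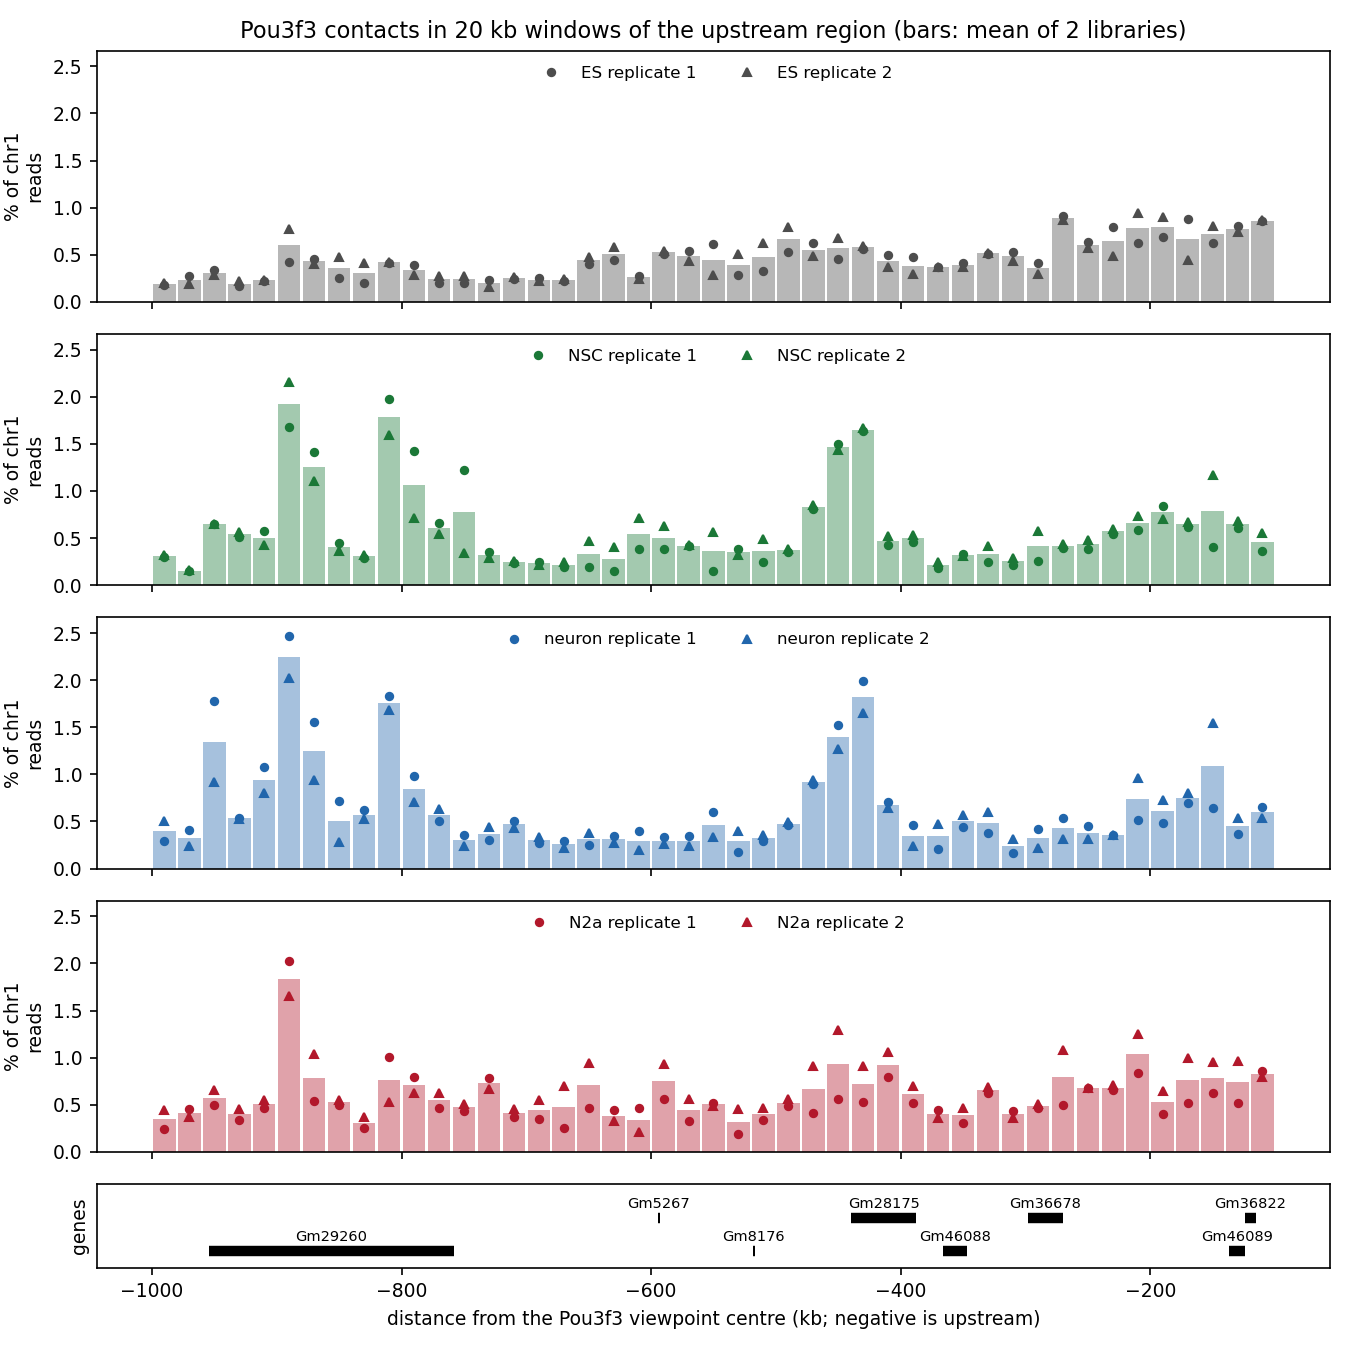
Share of chromosome 1 reads (vertical axes, percent) in 20 kb windows from 1000 to 100 kb upstream of the viewpoint centre (horizontal axis), with a panel for each cell type; bars are means of 2 libraries and points the libraries, and the lowest panel shows the 8 annotated genes. ES means stay between 0.192% and 0.890%, while NSC and neurons reach 1.92% and 2.25% in the window from 900 to 880 kb upstream.

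Read counts were compared between cell types in 5 kb windows with edgeR's quasi-likelihood test, fitted to all 8 libraries over the 323 windows within 1 Mb on either side of the viewpoint that had enough reads, with Benjamini-Hochberg adjustment over all 323 and a threshold of 0.05. Of the 180 windows wholly inside the region, 177 were tested, and the others, which started 560, 365 and 320 kb upstream, held too few reads. Over the 4 cell types 13 of the 177 passed, and 34 had an unadjusted p under 0.05. Over all 323 windows 4.64% passed, which includes 2 of the 146 outside the region. Of the 13, 9 were among the 40 windows that overlapped Gm29260, 1 was among the 11 that overlapped Gm28175, and 3 lay outside both genes. In windows of 20 kb, where 17% of 100 passed, 14 of the 45 in the region did. They started 960, 940, 920, 900, 880, 820, 800, 780, 760, 740, 600, 460, 440 and 280 kb upstream, and 9 of them were among the 11 that overlapped Gm29260. One of the 9, at -760 kb, reaches only the last part of the gene, and its shares were 1.22% in NSC replicate 1 and 0.338% in NSC replicate 2, with 0.204% to 0.510% in the other 6 libraries. The coefficient of variation between replicates was 55.3% in 5 kb and 37.7% in 20 kb windows. Leaving out 1 library lowered the count of 13 to 4 (ES replicate 1), 8 (ES replicate 2), 7 (neuron replicate 1) or 8 (neuron replicate 2), and the count of 14 to 5 (ES replicate 1) or 6 (ES replicate 2). Counting each run of adjacent fragments by the fewest reads that could give its counts left 4 of the 13, those at -955, -890, -880 and -440 kb. On a grid moved by 2.5 kb, each window was compared with the moved window starting 2.5 kb farther upstream, which covers only its far part. For 7 of the 13 that moved window missed the threshold. Its edgeR adjusted p over the 4 cell types was 0.217 at -955 kb, 0.178 at -920 kb, 0.178 at -890 kb, 0.0666 at -810 kb, 0.0727 at -800 kb, 0.704 at -745 kb and 0.181 at -445 kb. The moved windows over the near parts of those at -890, -810 and -445 kb passed (edgeR adjusted p = 0.00131, 0.00398 and 0.00367). The moved window over the near part of that at -800 kb did not pass. Those over the near parts of the windows at -955, -920 and -745 kb were fitted but are not reported here.

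**Figure D3:**
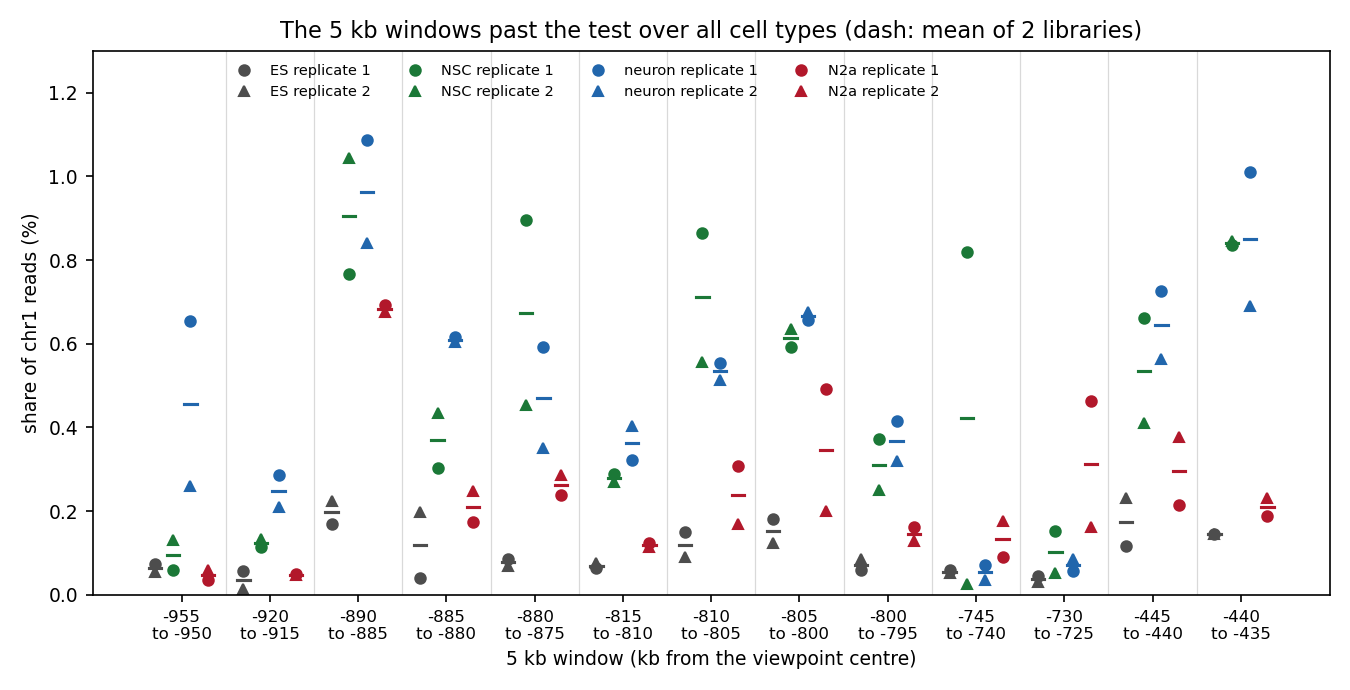
Share of chromosome 1 reads (vertical axis, percent) in the 13 windows of 5 kb that passed the test over the 4 cell types (horizontal axis, position in kb from the viewpoint centre), with 1 point per library and a dash for the mean of 2. NSC and neuron points stand highest in most windows, neuron replicate 1 alone reaches 0.654% at -955 kb, NSC replicate 1 alone reaches 0.820% at -745 kb, and N2a replicate 1 reaches 0.464% at -730 kb.

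The window with the smallest p of the region held the start of Gm28175, whose promoter is printed above. It lay at chr1:42257534-42262533 and held 0.146% in both ES libraries, 0.835% and 0.845% in NSC, 1.01% and 0.690% in neurons, and 0.189% and 0.231% in N2a. NSC and neuron libraries stood apart from ES and N2a with no overlap. NSC exceeded ES by a log2 change of 2.52 (SE 0.45, edgeR adjusted p = 3.71e-06) and neurons exceeded ES by 2.54 (SE 0.45, adjusted p = 2.69e-06), ratios of means of 5.75 and 5.82. N2a differed from ES by 0.53 (SE 0.43, edgeR adjusted p = 0.650). N2a was lower than NSC by a log2 change of -2.00 (SE 0.44, edgeR adjusted p = 0.00187) and lower than neurons by -2.01 (SE 0.44, adjusted p = 0.00144). The first of these 2 was lost without N2a replicate 1 (adjusted p = 0.0947) and the second without neuron replicate 1 (0.259) or N2a replicate 1 (0.0800), all by edgeR. By the fewest reads per run, the edgeR adjusted p was 0.0985 for neurons against ES, 0.154 for N2a against NSC and 0.469 for N2a against neurons, and on the moved grid the last 2 were 0.182 and 0.0963. The difference between neurons and NSC was 0.02 (SE 0.42, edgeR adjusted p = 1.00). The test over the 4 cell types gave an edgeR adjusted p of 9.72e-09. The window had 9 listed fragments, and the one with the most reads held 15.1% of them. The fragment that carries the start itself, at 42257765 to 42258244, had 2 and 7 reads in ES cells, 20 and 39 in NSC, 35 and 20 in the neurons, and 14 and 8 in N2a. These are raw reads from libraries of unequal depth and were not compared.

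The window just before the Gm28175 start, from -445 to -440 kb, held 0.116% and 0.232% in ES cells, 0.661% and 0.411% in NSC, 0.725% and 0.564% in the neurons, and 0.216% and 0.377% in N2a. ES and N2a overlapped there, and NSC and neurons lay above both. It passed over the 4 cell types with an edgeR adjusted p of 0.0156 and missed the threshold without ES replicate 1 (0.366), NSC replicate 1 (0.0583), neuron replicate 1 (0.145) or neuron replicate 2 (0.0524). Neurons exceeded ES by 1.90 (SE 0.50, edgeR adjusted p = 0.00551), and NSC by 1.62 (SE 0.50), which narrowly missed (adjusted p = 0.0501). The neuron call was lost without ES replicate 1 (0.367) or neuron replicate 1 (0.184) and on the moved grid (0.0904). The whole body of Gm28175 held 1.26% ± 0.134 in ES cells, 2.31% ± 0.288 in NSC, 2.65% ± 0.511 in the neurons, and 2.06% ± 0.618 in N2a. The ratio to ES over the gene body was 1.83 in NSC and 2.11 in neurons, smaller than in the window of its start, and 1.64 in N2a, against 1.44 in that window. In 20 kb windows the 2 on either side of the start passed, and the window starting at -460 kb held 0.570% ± 0.155 in ES cells, 1.47% ± 0.0495 in NSC, 1.40% ± 0.180 in the neurons, and 0.928% ± 0.523 in N2a.

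The body of Gm29260 took 3.04% and 3.75% of reads in ES cells, 9.47% and 8.24% in NSC, 11.7% and 8.87% in the neurons, and 6.80% and 6.77% in N2a. Each cell type stood above ES in both libraries, and N2a lay between ES and the other two. The ratios of the means to ES were 2.61 in NSC, 3.03 in the neurons and 2.00 in N2a. The 9 windows of 5 kb that passed in this gene fell at 3 places and in a lone window at -920 kb, which held no annotated start. The places were its first start, a stretch from 890 to 875 kb upstream, and the internal starts from 815 to 795 kb upstream.

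The first place turned on neurons. The window of the first start, from -955 to -950 kb, held 0.0748% and 0.0548% in ES cells, 0.0607% and 0.130% in NSC, 0.654% and 0.260% in the neurons, and 0.0359% and 0.0603% in N2a. Both neuron libraries were above the other 6, with replicate 1 far above replicate 2. Neurons exceeded ES by a log2 change of 2.81 (SE 0.73, edgeR adjusted p = 0.00551), and N2a was lower than neurons by -3.22 (SE 0.75, adjusted p = 0.00304). The log2 change between neurons and NSC was 2.21 (SE 0.72, edgeR adjusted p = 0.339). The call over the 4 cell types (edgeR adjusted p = 1.29e-04) was lost without neuron replicate 1 (0.319). The call against ES was lost without ES replicate 1 (0.0941), ES replicate 2 (0.125) or neuron replicate 1 (0.435), on the moved grid (0.0904) and by the fewest reads per run (0.0985). That against N2a was lost without neuron replicate 1 (0.495) or N2a replicate 1 (0.0800), in windows of 10 kb (0.0806) or 20 kb (0.0736) and on the moved grid (0.343). The lone window at -920 kb held 0.0561% and 0.0152% in ES cells, 0.114% and 0.133% in NSC, 0.286% and 0.210% in the neurons, and 0.0490% and 0.0465% in N2a. Its neuron libraries were the highest, with NSC next. Its adjusted p of 0.0310 by edgeR rose to 0.0655 and 0.235 without ES replicates 1 and 2, and to 0.300 and 0.0944 without neuron replicates 1 and 2.

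The second place, from -890 to -875 kb, had no annotated start. Its first window, chr1:41807534-41812533, held 0.170% and 0.225% in ES cells, 0.767% and 1.04% in NSC, 1.09% and 0.840% in the neurons, and 0.692% and 0.675% in N2a. All 6 libraries other than ES lay above both ES libraries, and it was the only window of the 13 that passed for each of NSC, neurons and N2a against ES. The log2 changes were 2.20 (SE 0.38, edgeR adjusted p = 3.58e-06) in NSC, 2.29 (SE 0.38, adjusted p = 9.38e-07) in neurons and 1.79 (SE 0.38, adjusted p = 7.33e-04) in N2a. The call over the 4 cell types (edgeR adjusted p = 2.17e-06) was lost without ES replicate 1 (0.0681), and that of N2a without ES replicate 1 (0.259) or 2 (0.0935). In the moved window over the far part of this window, all 3 calls against ES were lost. The edgeR adjusted p there was 0.280 in NSC, 0.0529 in the neurons and 0.146 in N2a. The moved window over its near part passed over the 4 cell types (edgeR adjusted p = 0.00131).

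The next window, at -885 kb, held 0.0411% and 0.198% in ES cells, 0.304% and 0.434% in NSC, 0.616% and 0.604% in the neurons, and 0.173% and 0.248% in N2a. ES and N2a overlapped there. Its adjusted p of 0.00851 by edgeR rose to 0.284 without ES replicate 1, 0.0994 without neuron replicate 1 and 0.0639 without neuron replicate 2. The window at -880 kb, chr1:41817534-41822533, held 0.0860% and 0.0701% in ES cells, 0.896% and 0.453% in NSC, 0.593% and 0.350% in the neurons, and 0.238% and 0.288% in N2a. ES was lowest, N2a next, and NSC and neurons overlapped above both. NSC exceeded ES by a log2 change of 3.09 (SE 0.56, edgeR adjusted p = 4.45e-06) and neurons by 2.59 (SE 0.55, adjusted p = 2.89e-04), while N2a differed by 1.74 (SE 0.54, adjusted p = 0.0558). Its call over the 4 cell types (edgeR adjusted p = 3.93e-05) passed without each library in turn, as did that of the Gm28175 start and of the window at -810 kb. The other 10 of the 13 calls were lost without at least 1 library.

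The third place held 2 of the printed internal promoters. The window at -815 kb, with the start at -810.5 kb, held 0.0636% and 0.0761% in ES cells, 0.289% and 0.271% in NSC, 0.321% and 0.404% in the neurons, and 0.124% and 0.114% in N2a. The replicates lay close and the order was ES, N2a, NSC, neurons. Its adjusted p of 0.0355 by edgeR was lost without ES replicate 1 (0.284), ES replicate 2 (0.168), NSC replicate 1 (0.0583), neuron replicate 1 (0.0994) or neuron replicate 2 (0.176). The window at -810 kb, just past that start, held 0.150% and 0.0914% in ES cells, 0.866% and 0.557% in NSC, 0.555% and 0.514% in the neurons, and 0.307% and 0.169% in N2a. NSC exceeded ES there by a log2 change of 2.54 (SE 0.52, edgeR adjusted p = 8.87e-05) and neurons by 2.14 (SE 0.51, adjusted p = 0.00199), while N2a differed by 0.96 (SE 0.50, adjusted p = 0.436). The neuron call was lost without ES replicate 2 (0.118), and both were lost by the fewest reads per run (0.151 and 0.335).

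The window at -805 kb, with the start at -801.9 kb, held 0.181% and 0.125% in ES cells, 0.592% and 0.635% in NSC, 0.657% and 0.677% in the neurons, and 0.493% and 0.201% in N2a. NSC and neuron replicates agreed closely, and the N2a replicates did not. NSC exceeded ES by 2.00 (SE 0.48, edgeR adjusted p = 0.00198) and neurons by 2.11 (SE 0.48, adjusted p = 7.93e-04), calls that were lost without ES replicate 2 (0.152 and 0.102) and by the fewest reads per run (0.102 and 0.0731). Over the 4 cell types its edgeR adjusted p was 0.00195, and 0.0538 and 0.156 without ES replicates 1 and 2. The window at -800 kb held 0.0598% and 0.0853% in ES cells, 0.372% and 0.250% in NSC, 0.416% and 0.320% in the neurons, and 0.163% and 0.129% in N2a. Its adjusted p of 0.0451 by edgeR became 0.366 without ES replicate 1, 0.170 without ES replicate 2, 0.0881 without NSC replicate 1, 0.161 without neuron replicate 1 and 0.0813 without neuron replicate 2. The start of the gene nearest to the viewpoint, at -790.9 kb, lay in a window that did not pass (edgeR adjusted p = 0.437), with 0.137% ± 0.0471 in ES cells, 0.364% ± 0.205 in NSC, 0.306% ± 0.0746 in the neurons, and 0.278% ± 0.0595 in N2a.

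Beyond the end of Gm29260 on the side of Pou3f3, 2 windows with no annotated gene passed, and neither call held without its highest library. The window at -745 kb held 0.0598% and 0.0518% in ES cells, 0.820% and 0.0260% in NSC, 0.0708% and 0.0367% in the neurons, and 0.0914% and 0.177% in N2a. Only NSC replicate 1, the shallowest library, was high there. Its call over the 4 cell types (edgeR adjusted p = 0.00851) was lost without NSC replicate 1 (0.578), ES replicate 1 (0.162), N2a replicate 1 (0.414) or N2a replicate 2 (0.376), and DESeq2 gave 0.212. The log2 change of NSC against ES, 2.87 (SE 0.80, edgeR adjusted p = 0.0275), turned to -1.10 (adjusted p = 0.835) without NSC replicate 1, and the call was also lost without ES replicate 1 (0.472), ES replicate 2 (0.198), N2a replicate 1 (0.346) or N2a replicate 2 (0.337). With the replicate number as a block the change was 2.41 (edgeR adjusted p = 0.0819), and the call was also lost with DESeq2 (0.240), on the moved grid (0.898) and by the fewest reads per run (0.215). The window at -730 kb held 0.0449% and 0.0305% in ES cells, 0.152% and 0.0520% in NSC, 0.0567% and 0.0867% in the neurons, and 0.464% and 0.162% in N2a. Both N2a libraries were highest, by a wide margin only in replicate 1. N2a exceeded ES by 3.02 (SE 0.80, edgeR adjusted p = 0.0177), which was lost without ES replicate 1 (0.259), ES replicate 2 (0.434) or N2a replicate 1 (0.506), on the moved grid (0.146) and by the fewest reads per run (0.339). The call over the 4 cell types (edgeR adjusted p = 0.0123) was lost without ES replicate 1 (0.0900), ES replicate 2 (0.108) or N2a replicate 1 (0.528).

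In 20 kb windows the stretch from -960 to -720 kb passed in all windows but those starting at -860 and -840 kb. Both ES libraries lay below the other 6 in 10 of the 45 windows of the region (11% of all 100 windows), namely those starting 1000, 960, 940, 920, 900, 880, 820, 800, 780 and 740 kb upstream, of which all but the first lay in this stretch. Both lay above the other 6 in 1 of 45, the window starting 320 kb upstream (17% of all 100). The window at -940 kb, which no 5 kb window marked, held 0.166% and 0.222% in ES cells, 0.516% and 0.564% in NSC, 0.541% and 0.527% in the neurons, and 0.343% and 0.458% in N2a, with an edgeR adjusted p of 0.0281 over the 4 cell types. The window at -780 kb held 0.239% ± 0.0545 in ES cells, 0.603% ± 0.0808 in NSC, 0.569% ± 0.0906 in the neurons, and 0.547% ± 0.108 in N2a (edgeR adjusted p = 0.0252). The means of the 3 non-ES cell types lay within 1 SD of one another there. In the windows at -860 and -840 kb, also inside the gene, ES replicate 2 overlapped other cell types.

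The 4 lncRNA genes nearer to the viewpoint had no passing 5 kb window at their starts. Gm46088 (365.7 to 346.6 kb upstream) held 0.335% of reads in ES cells, 0.252% in NSC, 0.293% in the neurons, and 0.189% in N2a on average. Gm36678, at 298.3 to 269.9 kb, held 0.740%, 0.534%, 0.471% and 0.791%, Gm46089 held 0.456%, 0.378%, 0.234% and 0.442%, and Gm36822 held 0.350%, 0.169%, 0.269% and 0.268%, in the same order. In none of the 4 were both libraries of NSC and of neurons above both ES libraries. The edgeR adjusted p over the 4 cell types ranged from 0.191 in the window of the Gm46088 start to 0.773 in a window of Gm36678. The pseudogenes Gm5267 and Gm8176 are short and held under 0.09% in every library. In 20 kb windows, some windows outside Gm29260 and Gm28175 passed with another order of cell types. The window at -740 kb, where N2a was highest, held 0.195% ± 0.0519 in ES cells, 0.322% ± 0.0391 in NSC, 0.370% ± 0.0991 in the neurons, and 0.728% ± 0.0828 in N2a (edgeR adjusted p = 0.0034). The window at -600 kb held 0.524% ± 0.0168 in ES cells, 0.506% ± 0.179 in NSC, 0.295% ± 0.0499 in the neurons, and 0.750% ± 0.262 in N2a (edgeR adjusted p = 0.0416). That at -280 kb held 0.890% ± 0.0348 in ES cells, 0.417% ± 0.0317 in NSC, 0.426% ± 0.155 in the neurons, and 0.790% ± 0.411 in N2a (edgeR adjusted p = 0.0397), so that the ES libraries were above those of NSC and neurons, with the N2a libraries apart from each other. This window holds a start of Gm36678, whose 5 kb window did not pass.

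Counted by pairs of cell types, the windows of the region that passed against ES were all higher than ES in the fit to all 8 libraries, and not in every fit with a library left out. NSC was higher than ES in 6 of the 177 windows of 5 kb and lower in 0 (1.86% and 0% of all 323 windows), with 22 higher and 4 lower at an unadjusted p under 0.05. Neurons were higher than ES in 13 and lower in 0 (4.33% and 0%), and N2a was higher in 4 and lower in 0 (1.24% and 0.619%). All these comparisons share the ES libraries. Without ES replicate 1 or 2 the neuron count fell to 5 each time, without neuron replicate 1 to 7, and the N2a count fell to 0 without either ES library and to 2 without neuron replicate 1, neuron replicate 2 or N2a replicate 1. Lower calls appeared without neuron replicate 2, with 10 windows higher and 1 lower for neurons, and without N2a replicate 2, with 4 higher and 2 lower for N2a. DESeq2 gave 11, 19 and 7 for NSC, neurons and N2a against ES. The median log2 change over the tested windows of the region was 0.15 in NSC, 0.13 in the neurons and 0.45 in N2a against ES, beside -0.33, -0.26 and 0.05 over all 323. With TMM factors those medians over all windows moved to -0.24, -0.19 and -0.03, and in 20 kb windows from -0.43, -0.52 and -0.06 to -0.04, -0.09 and 0.01, so a log2 change is read against the median of its own scaling.

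Most of the windows named by pair have been described. The neuron list also held the window at -905 kb, inside Gm29260, with 0.0337% and 0.0244% in ES cells, 0.175% and 0.120% in NSC, 0.172% and 0.257% in the neurons, and 0.170% and 0.160% in N2a. All 6 non-ES libraries stood above ES. Its log2 change in neurons was 2.86 (SE 0.80, edgeR adjusted p = 0.0133), lost without ES replicate 1 (0.200), ES replicate 2 (0.180) or neuron replicate 2 (0.151), on the moved grid (0.140) and by the fewest reads per run (0.144). In the windows already described, the neuron change against ES was 2.75 (SE 0.82, edgeR adjusted p = 0.0199) at -920 kb, lost without ES replicate 1 (0.0748), ES replicate 2 (0.512), neuron replicate 1 (0.305) or neuron replicate 2 (0.0686), on the moved grid (0.0529) and by the fewest reads per run (0.0985).

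The N2a list held 2 more windows of Gm29260. The one at -775 kb held 0.0486% and 0.0579% in ES, 0.114% in both NSC libraries, 0.189% and 0.237% in neurons, and 0.215% and 0.372% in N2a, a rise over ES of 2.47 (SE 0.73, edgeR adjusted p = 0.0400). It was lost without ES replicate 1 (0.361), ES replicate 2 (0.434), neuron replicate 1 (0.0524), neuron replicate 2 (0.0584) or N2a replicate 2 (0.197). It was also lost with the replicate number as a block (0.0511), with no filter (0.0515), on the moved grid (0.106) and by the fewest reads per run (0.141). The one at -895 kb held 0.153% and 0.280% in ES cells, 0.440% and 0.583% in NSC, 0.607% and 0.427% in the neurons, and 0.793% and 0.470% in N2a, a rise of 1.55 (SE 0.45, edgeR adjusted p = 0.0400). It was lost without ES replicate 1 (0.592), ES replicate 2 (0.124), neuron replicate 1 (0.0625), neuron replicate 2 (0.0528) or N2a replicate 1 (0.450), with no filter (0.0603) and by the fewest reads per run (0.152). In both windows every non-ES library lay above the ES libraries.

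**Figure D4:**
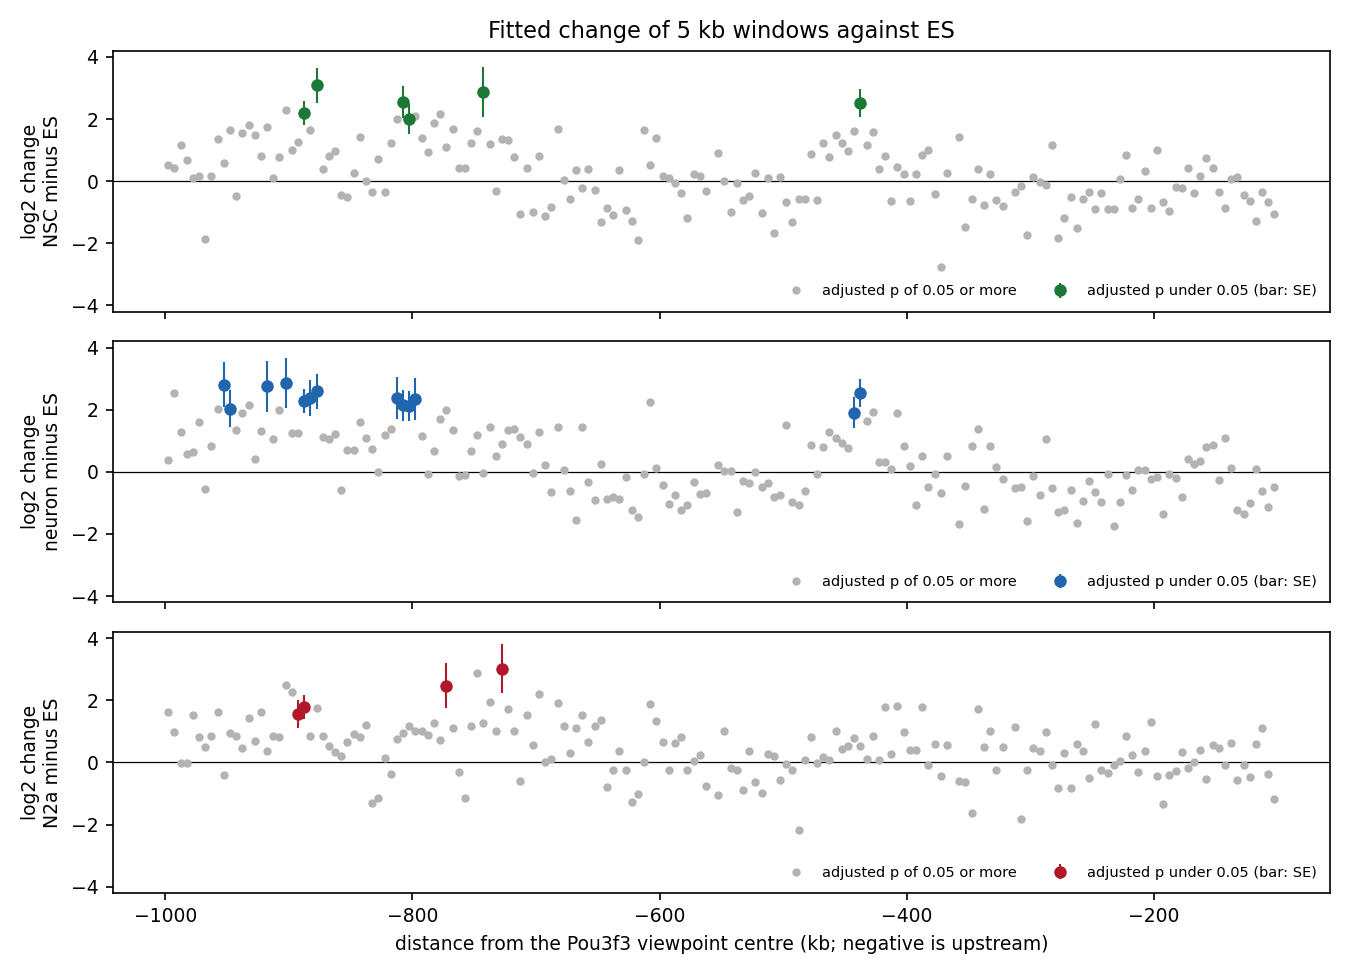
Fitted log2 change against ES (vertical axes) of each tested 5 kb window of the region by its distance from the viewpoint centre in kb (horizontal axis), with panels for NSC, neurons and N2a. Coloured points with bars (SE) passed the adjusted threshold, 6 in NSC, 13 in neurons and 4 in N2a, all above 0, and grey points did not.

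Between the other cell types few windows passed. Neurons against NSC gave 0 higher and 0 lower of 177 by edgeR (0% of all 323 windows each way), with 6 higher and 2 lower at an unadjusted p under 0.05, and DESeq2 gave 0. Leaving out NSC replicate 2 gave 1. N2a was lower than NSC in 1 window and higher in 0 (0.619% and 0%), the Gm28175 start, and it was lower than neurons in 2 and higher in 0 (0.929% and 0%), the same start and the first start of Gm29260. The counts with N2a fell to 0 without N2a replicate 1, and that against neurons also without neuron replicate 1. The medians over the region were 0.11 for neurons against NSC, 0.30 for N2a against NSC and 0.13 for N2a against neurons, beside 0.07, 0.27 and 0.13 over all windows. With TMM factors the latter became 0.06, 0.13 and 0.02. In 20 kb windows NSC and neurons each exceeded ES in 10 of 45 (10% of 100 for each) and N2a did in 3 (3%), with 0 lower in the region in each case (2%, 0% and 2%). Lower calls appeared here too: NSC gave 11 higher and 1 lower without neuron replicate 1, N2a replicate 1 or N2a replicate 2, and neurons gave 10 higher and 1 lower without N2a replicate 1 or N2a replicate 2. Without ES replicate 1 these counts were 1, 5 and 1. Without ES replicate 2 they were 6 for NSC and 1 for N2a, and the NSC count was 3 and 5 without NSC replicates 1 and 2.

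At neither edge of the region did the shares of single 5 kb windows step the same way in all libraries. The N2a means differed most across both edges. The 5 kb window just inside the far edge held 0.0672% in ES cells, 0.0985% in NSC, 0.0859% in the neurons, and 0.203% in N2a on average, and the window just outside held 0.0508%, 0.0738%, 0.0581% and 0.0580%. At the near edge the window just inside held 0.291%, 0.140%, 0.205% and 0.126%, the one that straddled the edge 0.200%, 0.147%, 0.211% and 0.288%, and the one outside 0.208%, 0.210%, 0.156% and 0.400%. The annotated lncRNA gene Gm30248 (chr1:42598931-42641594) crosses the near edge and was not counted among the 8.

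By the authors' own calls few single fragments of the region stood out. A q value under 0.05 in the authors' deposited table was given to 16 of 11885 fragment listings in the region (0.135%), against 308 of 60858 on chromosome 1 beyond 5 kb (0.506%). They were 4 in ES replicate 1, 5 in NSC replicate 1, 6 in neuron replicate 1 and 1 in neuron replicate 2, in the authors' deposited table, and 0 in the other 4 libraries. The 5 of NSC replicate 1 lay in the windows at -880 and -745 kb and 3 of neuron replicate 1 in the window of the Gm28175 start. The q values were given per file and compare no cell types.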

How the data were processed

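Contacts of the Pou3f3 viewpoint were analysed in 8 libraries of mouse genomic DNA, 2 per cell type. The submitters' processing notes name Trim Galore, Bowtie and the build mm10. How reads were assigned to fragments, whether duplicates were removed, the restriction enzyme and the versions of the tools are steps not stated in those notes or in the files. The deposited tables hold counts, whole reads per restriction fragment without normalization by the authors, and the authors' q value per fragment, which was used only to describe. Totals per library are given with the results, and since reads carried no molecular identifiers, a count is not a number of molecules.

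Reads of fragments were summed by fragment midpoint in 5 kb windows on a grid from the viewpoint centre, and in 20 kb windows. Library size was the total of chromosome 1 reads beyond 5 kb, with no scaling factor. Windows within 1 Mb passing filterByExpr (minimum count 10) were fitted with edgeR 4.0.16 (robust quasi-likelihood, R 4.3.3), with a test over the 4 cell types and 6 contrasts between pairs. Adjusted p values are those of Benjamini and Hochberg over all windows of a comparison, with a threshold of 0.05. Windows were named by rule: those of 5 or 20 kb past the threshold over the 4 cell types, up to 5 per pair with the largest log2 change, the 10 of 20 kb with the highest mean share, and those holding an annotated start. Alternatives were TMM factors, DESeq2 1.42.0, no filter, the fewest reads per run of adjacent fragments, windows of 10 or 20 kb, a grid shifted by 2.5 kb, the replicate number as a block and leaving out each library. The region, its genes and the windows were chosen with earlier results of these data known. Genes and promoters came from RefSeq on GRCm38.p6.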

Additional observations from a re-analysis of the deposited data

How the results depend on the processing

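The shares of the region in the 4 cell types moved with the reads taken as the total. With 20 kb left out on either side of the viewpoint they were 24.0% in ES, 32.6% in NSC and 34.5% in neurons, of the reads from 5 kb to 1 Mb they were 36.9% in ES cells, 45.8% in NSC, 48.2% in the neurons, and 47.4% in N2a, and with the fewest reads per run they were 19.3% in ES and 26.5% in neurons. ES stayed lowest in each. Leaving out a library gave 20.4% to 21.0% in ES cells, 25.9% to 27.6% in NSC, 27.5% to 29.7% in the neurons, and 24.4% to 31.2% in N2a. Of the counts of 5 kb windows in the region past the threshold, that over the 4 cell types (13) became 21 with DESeq2 and 4 with the fewest reads per run. NSC against ES (6) became 10 with TMM factors, 11 with DESeq2, 3 with the fewest reads and 10 in 20 kb windows. Neurons against ES (13) became 3 with the fewest reads. N2a against ES (4) became 7 with TMM factors, 7 with DESeq2, 2 with no filter, 0 with the fewest reads and 2 on the shifted grid. Neurons against NSC (0) became 1 in 10 kb windows. N2a against NSC (1) became 3 with DESeq2 and 0 with the fewest reads, in 20 kb windows or on the shifted grid. N2a against neurons (2) became 1 with the fewest reads, in 10 kb windows or on the shifted grid. Leaving out 1 library gave 4 to 15 over the 4 cell types, 5 to 8 for NSC against ES, 5 to 14 for neurons against ES, 0 to 6 for N2a against ES, 0 to 1 for neurons against NSC, 0 to 1 for N2a against NSC and 0 to 2 for N2a against neurons. In 20 kb windows, in alternatives chosen after seeing the data, TMM factors gave 16 for neurons against ES (10) and 5 for N2a against ES (3), and leaving out 1 library gave 5 to 16 over the 4 cell types (14), 1 to 12 for NSC against ES (10), 5 to 11 for neurons and 1 to 4 for N2a. The log2 change of NSC against ES at -745 kb ranged from -1.10 without NSC replicate 1 to 3.86 without NSC replicate 2. Deviations of same-numbered libraries correlated weakly, at -0.0275 to 0.109 over the 6 pairs of cell types. With counts this low, a weak correlation cannot tell whether same-numbered libraries shared a culture or day, and no label says so. The fit with the replicate number as a block gave 13 windows over the 4 cell types, 7 for NSC, 13 for neurons and 4 for N2a against ES, 0 for neurons against NSC, 1 for N2a against NSC and 2 for N2a against neurons. By edgeR it ended the calls of NSC against ES at -745 kb (adjusted p = 0.0819) and of N2a against ES at -775 kb (0.0511), while other windows came in. The cause of these shifts was not tested. Tested 5 kb windows held a median of 33 reads per library.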
